A study of Oryza sativa Indica Group with 18 samples.

Results

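Cyclins and the cyclin-dependent kinases (CDKs) they activate were examined in rice seedlings under drought, together with the KRP proteins that inhibit the kinases. Members were genes whose RefSeq symbol or synonym has the form of a cyclin class name (CYC, a letter and digits), a CDK class name or a KRP name, and which have a probe set annotated to that gene alone. The probe set of the highest mean stood for each gene. Of 45 genes with such a name, 37 had a probe set of their own, among 17905 genes of the array that had one. They were 3 A-type, 4 B-type and 9 D-type cyclins, 7 cyclins of other classes, 10 CDKs and 4 KRP inhibitors. The 8 named genes not measured here through a probe set of their own were CYCA3-1, CYCB1-5, CYCD2-1, CDKC-2, CDKF-2, KRP2, KRP3 and LOC4328207, one of the genes listed as CYCT1-1. The other gene of that name, LOC4352229, is the CYCT1-1 described here. CYCB1-1 stands for LOC4327547, since RefSeq also lists that name as a synonym of CYCB1-3, LOC4326914. CYCF2-2 lay at the floor of the scale in all 6 groups, between 4.39 and 4.40, and was not tested, which left 36 members in the tests. CDKB2-1, whose name has another form, is described with the other cell cycle genes.

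A cyclin binds a CDK and switches it on, and the cyclin's own rise and fall gives the kinase its timing in the cell cycle. In plants, D-type cyclins act at the start of the cycle by driving phosphorylation of the retinoblastoma-related protein RBR, which holds back genes for DNA replication, while A-type cyclins serve DNA replication and the later phases and B-type cyclins the entry into mitosis. Other cyclins and CDKs work in transcription and RNA processing, and KRP proteins bind and inhibit cyclin-CDK complexes. In a seedling, dividing cells lie mostly in the shoot and root meristems and at the base of the young leaves.

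Seedlings of 2 indica rice cultivars, Dagad deshi and IR20, were grown in nutrient solution to an age of 7 days. Drought was given by laying the seedlings on filter paper for 3 h or 6 h, and unstressed controls stayed in the solution for 6 h, so the 3 h groups have no control of their own time. Each of the 6 groups had 3 arrays, labelled biological replicates. The labels do not say whether replicates were separate cultures, so p-values measure the spread between these samples only. RNA came from whole seedlings, in which fewer dividing cells and less RNA per cell cannot be told apart. Levels are log2 of the deposited intensity plus 16, so the lowest possible level is 4 and changes of dim probe sets are understated. A level is compared between groups for the same probe set only. A change is a difference of group means on the log2 scale with its standard error (SE). The SE rests on a spread per probe set that all 6 groups share. Controls spread more, with a median SD of the members of 0.155 in Dagad deshi and 0.133 in IR20. Under drought this median was 0.066 to 0.12. SEs of comparisons with controls may thus be too small. A member was called where the Benjamini-Hochberg adjusted p of the limma fit over 40094 probe sets was under 0.05.

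All arrays were alike in brightness, with median intensities from 7.13 to 8.20. The control arrays differed from the drought arrays in the 3'/5' index, which sets the 3' signal of the actin, GAPDH and cyclophilin controls over their 5' signal (mean log2 ratio) and is high where RNA is broken or labelling was incomplete. The index ran from 4.12 to 8.88 in the 6 controls and from 1.80 to 3.19 in the 12 drought arrays. It moves with every comparison against controls and cannot be told apart from drought there. Under drought it was 1.80 to 2.14 at 3 h and 1.81 to 2.15 at 6 h in Dagad deshi, but in IR20 2.79 to 2.89 at 3 h and 1.82, 1.86 and 3.19 at 6 h. It thus moved also between the cultivars at 3 h and, on 2 of the 3 arrays at 6 h, between the times in IR20. In the controls it was 5.52, 5.75 and 8.88 in Dagad deshi and 4.12, 4.33 and 6.88 in IR20. These ranges overlapped, but the index lay lower in most IR20 controls. They enter the comparison of the controls and each cultivar difference of the response. For the 8 drought marker genes with a probe set, such as SALT, RAB16 and LEA3, intensities were summed before the log2 was taken. This log2 sum was 13.68 to 14.25 in Dagad deshi controls and 14.68 to 15.04 in IR20 controls. SALT alone had mean levels of 13.495 and 14.533 there. At 3 h the log2 sum of the 8 genes was 17.63 to 17.69 in Dagad deshi and lower in IR20, 16.94 to 16.96. At 6 h it was 17.81 to 17.85 and 17.85 to 17.96. Tissue markers moved as well. The log2 sum of 3 leaf genes was 16.39 to 16.69 in Dagad deshi controls and 15.52 to 15.67 at 6 h, against 16.40 to 16.59 and 16.09 to 16.28 in IR20. For 6 root genes the log2 sum was 11.71 to 11.91 in Dagad deshi controls, 11.88 to 12.04 at 6 h, 12.65 to 13.19 in IR20 controls and 13.53 to 13.82 at 6 h. These root genes went opposite ways. In Dagad deshi at 6 h 2 were called higher and 2 lower, against 24.7% and 45.7% of all probe sets. In IR20 at 6 h 4 were called higher and 2 lower, against 20.4% and 25.5%. The lower ones were SHR1 and SCR1. The part of these markers in the changes of the members was not tested.

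Most cyclins were lower under drought in both cultivars, while CDKs were divided between genes that fell and genes that rose. In Dagad deshi, 26 of the 36 members were lower and 6 higher at 3 h, against 47.3% lower and 23.6% higher among all probe sets tested, and 25 were lower and 6 higher at 6 h (45.7% and 24.7%). In IR20, 24 were lower and 4 higher at 3 h (21.9% and 14.9%), and 24 were lower and 6 higher at 6 h (25.5% and 20.4%). The share of members that fell was thus 72.2% in Dagad deshi and 66.7% in IR20 at 3 h. Falls of at least 1 on the log2 scale were called in 20 members of Dagad deshi at 3 h and 15 at 6 h (13.5% and 13.8% of all probe sets), and in 7 and 13 members of IR20 (6.02% and 11.2%). The median change of the members in Dagad deshi was -1.05 at 3 h and -0.87 at 6 h, against -0.48 and -0.73 for IR20, where that of all probe sets lay between -0.03 and 0.01.

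The classes differed in direction. All 16 members of the A, B and D types had changes below 0 in each of the 4 comparisons with controls, and 14 of them were called lower at 3 h and 15 at 6 h in each cultivar. Of the 10 CDKs, 4 were called lower in each of the 4 comparisons, and 5 were called higher at both times in Dagad deshi, 3 at 3 h in IR20 and 4 at 6 h in IR20. The share of CDKs called lower, 40.0%, lay under that of all probe sets in Dagad deshi and over it in IR20, and 1 of the 4 was CDKF-4, whose probe sets disagree. At 3 h, 23 members were called lower in both cultivars (17.8% of all probe sets), 3 were called higher in both (12%), namely CDKF-3, CDKG-1 and CDKG-2, and none was called in opposite directions. At 6 h, 23 were lower in both (20.8%), the same 3 CDKs were higher in both (16.1%) and 1, KRP6, was called lower in Dagad deshi and higher in IR20.

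**Figure D1:**
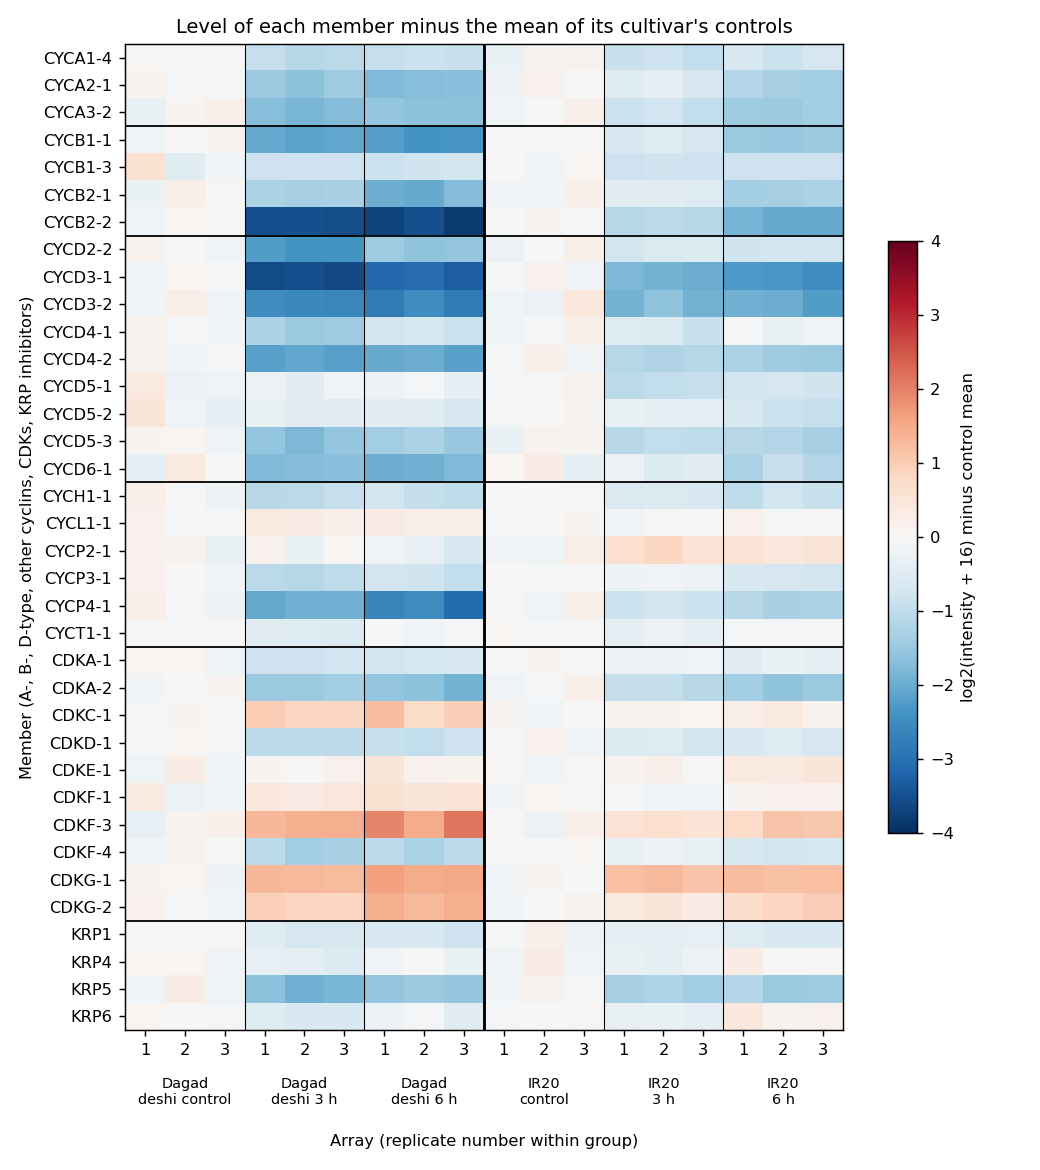
Level of each tested member on each of the 18 arrays (columns, replicate number within group) minus the mean of the same cultivar's controls, in log2 units, with blue for lower and red for higher. Blue fills the rows of the A-, B- and D-type cyclins under drought and is deeper in Dagad deshi in most of them, CYCB1-3, CYCD5-1 and CYCD5-2 being exceptions, while CDKC-1, CDKF-3, CDKG-1 and CDKG-2 are red.

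The 3 A-type cyclins, regulators of DNA replication and of the later cell cycle, fell in both cultivars at both times. CYCA2-1 had levels of 10.80, 10.57 and 10.62 on the Dagad deshi control arrays, 9.20, 9.03 and 9.22 at 3 h and 8.88, 8.96 and 9.01 at 6 h. On the IR20 arrays it had 10.14, 10.51 and 10.37 in the controls, 9.85, 9.97 and 9.71 at 3 h and 9.16, 9.01 and 8.95 at 6 h. The drought arrays lay below all controls of their cultivar, and in IR20 the 6 h arrays lay below the 3 h arrays as well. Its changes against controls were -1.51 ± 0.10 (SE) at 3 h and -1.71 ± 0.10 at 6 h for Dagad deshi, against -0.49 ± 0.10 and -1.30 ± 0.10 for IR20 (limma, highest adjusted p = 0.00104). When the index was made a term of the fit, the IR20 change at 3 h was -0.31 and still called.

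CYCA3-2 stood at 8.47, 8.86 and 8.95 in Dagad deshi controls, 7.05, 6.94 and 7.02 at 3 h and 7.21, 7.11 and 7.11 at 6 h. The IR20 levels were 8.34, 8.51 and 8.71, then 7.66, 7.75 and 7.52 at 3 h and 7.10, 7.08 and 7.16 at 6 h. No drought array reached a control, and at 6 h the arrays of both cultivars lay in the same range. The changes were -1.75 ± 0.12 and -1.61 ± 0.12 in Dagad deshi and -0.87 ± 0.12 and -1.41 ± 0.12 in IR20 (highest adjusted p = 3.18e-05). CYCA1-4 fell by similar amounts everywhere, with changes from -1.05 in Dagad deshi at 3 h to -0.73 in IR20 at 6 h.

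B-type cyclins, which drive the entry into mitosis, held the deepest fall among the members in Dagad deshi at 6 h. CYCB2-2 had levels of 11.83, 12.04 and 12.00 in Dagad deshi controls, 8.44, 8.45 and 8.41 at 3 h and 8.24, 8.44 and 8.13 at 6 h. In IR20 it had 11.38, 11.53 and 11.32 in controls, 10.28, 10.36 and 10.28 at 3 h and 9.55, 9.40 and 9.35 at 6 h. Controls and drought arrays did not overlap in either cultivar, and every IR20 drought array lay above every Dagad deshi drought array. The fall was 11.5-fold at 3 h and 12.9-fold at 6 h in Dagad deshi, changes of -3.52 ± 0.08 and -3.69 ± 0.08, but 2.16-fold and 3.94-fold in IR20, changes of -1.11 ± 0.08 and -1.98 ± 0.08 (highest adjusted p = 5.99e-08). The other probe set of this gene fell in the same direction but less, by 4.05-fold in Dagad deshi and 1.76-fold in IR20 at 3 h (-2.02 ± 0.20 and -0.81 ± 0.20). At 6 h its fall was 2.95-fold in IR20 (-1.56 ± 0.20). In Dagad deshi at 6 h it lay 1.27-fold below its 3 h level (-0.34 ± 0.20, not called), so its fall stayed far short of the chosen one's. Between the controls it had an IR20 difference of 0.36 ± 0.20, not called, against -0.54 ± 0.08 on the chosen one.

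CYCB1-1 had 10.68, 10.90 and 10.94 in Dagad deshi controls, 8.83, 8.69 and 8.76 at 3 h and 8.62, 8.46 and 8.48 at 6 h. For IR20 the levels were 10.75, 10.81 and 10.75 in controls, 10.17, 10.27 and 10.09 at 3 h and 9.27, 9.27 and 9.33 at 6 h. The controls of the cultivars overlapped, while at both drought times the IR20 arrays were higher. Its changes were -2.08 ± 0.07 and -2.32 ± 0.07 in Dagad deshi and -0.60 ± 0.07 and -1.48 ± 0.07 in IR20 (highest adjusted p = 7.73e-06). CYCB2-1 fell too, with changes at 6 h of -1.89 ± 0.11 in Dagad deshi and -1.32 ± 0.11 in IR20. CYCB1-3, a dim probe set, had changes from -0.83 to -0.80 over the 4 comparisons and was called in each. In Dagad deshi its control replicate 1 stood at 6.07 against 4.98 and 5.36 on the others, and without that array the changes were -0.53 at 3 h and -0.49 at 6 h. With the index as a term they were -0.22 and -0.20 and no longer called (adjusted p = 0.62 and 0.662).

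Among D-type cyclins, which link the start of the cycle to sugar and hormone supply, 7 of 9 were called lower at 3 h and 8 of 9 at 6 h in each cultivar. CYCD3-1 had levels of 10.28, 10.46 and 10.42 in Dagad deshi controls, 6.81, 6.88 and 6.78 at 3 h and 7.24, 7.33 and 7.09 at 6 h. IR20 gave 10.01, 10.21 and 9.88 in controls, 8.22, 8.13 and 8.03 at 3 h and 7.73, 7.70 and 7.55 at 6 h. Every drought array was far below its controls, and the order of the times was opposite, the lower level being at 3 h in Dagad deshi and at 6 h in IR20. The changes were -3.56 ± 0.09 and -3.17 ± 0.09 in Dagad deshi and -1.90 ± 0.09 and -2.37 ± 0.09 in IR20 (highest adjusted p = 7.39e-10). At 3 h in Dagad deshi this was 11.8-fold lower, the deepest fall of any member in that comparison.

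CYCD3-2 had 8.43, 8.83 and 8.40 in Dagad deshi controls, 6.06, 5.99 and 5.96 at 3 h and 5.73, 6.06 and 5.73 at 6 h. Its IR20 levels were 7.86, 7.78 and 8.44 in controls, 6.14, 6.42 and 6.12 at 3 h and 6.11, 6.05 and 5.80 at 6 h. In both cultivars the drought levels lay well apart from the controls, although the controls spread more than the drought arrays. Changes were -2.55 ± 0.18 and -2.71 ± 0.18 in Dagad deshi and -1.80 ± 0.18 and -2.04 ± 0.18 in IR20 (highest adjusted p = 1.31e-06).

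CYCD2-2 returned part of the way in Dagad deshi, where it had 8.54, 8.41 and 8.25 in controls, 6.17, 6.01 and 6.02 at 3 h and 6.99, 6.79 and 6.83 at 6 h. In IR20 it had 7.71, 7.95 and 8.17 in controls, 7.21, 7.35 and 7.39 at 3 h and 7.16, 7.21 and 7.20 at 6 h. The 6 h arrays of Dagad deshi lay between its 3 h arrays and its controls without overlap, while those of IR20 at 6 h did not lie above those at 3 h. Against controls the changes were -2.34 ± 0.12 and -1.53 ± 0.12 in Dagad deshi and -0.63 ± 0.12 and -0.76 ± 0.12 in IR20 (highest adjusted p = 0.000471).

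CYCD6-1, in Arabidopsis a cyclin of the root divisions that SHORT-ROOT and SCARECROW control, had 7.14, 7.93 and 7.54 in Dagad deshi controls, 5.77, 5.81 and 5.86 at 3 h and 5.58, 5.62 and 5.76 at 6 h. IR20 arrays gave 7.33, 7.54 and 6.88 in controls, 7.01, 6.69 and 6.81 at 3 h and 5.99, 6.34 and 6.07 at 6 h. In IR20 the 3 h arrays overlapped the controls and only the 6 h arrays lay below them. It was called lower in Dagad deshi, with -1.72 ± 0.19 at 3 h and -1.88 ± 0.19 at 6 h, and in IR20 at 6 h with -1.12 ± 0.19 (highest adjusted p = 0.00019), but not in IR20 at 3 h (-0.41 ± 0.19, adjusted p = 0.118). The rice genes SHR1 and SCR1, named after those root factors and counted among the root genes above, were lower in all 4 comparisons, with changes from -2.24 to -1.53 for SHR1 and from -2.16 to -1.14 for SCR1.

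The remaining D-type cyclins were more mixed. CYCD4-2 and CYCD5-3 were called lower in each comparison, with changes from -2.14 to -1.03. CYCD4-1 was lower at 3 h in both cultivars (-1.39 and -0.65) and less so at 6 h, where it was still called in Dagad deshi (-0.77) and not in IR20 (-0.18 ± 0.12, adjusted p = 0.232). CYCD5-1 was called lower in IR20 only (-0.998 and -0.73), with values of -0.27 ± 0.15 and -0.22 ± 0.15 in Dagad deshi. CYCD5-2 was called lower at 6 h in both, with -0.52 ± 0.16 in Dagad deshi and -0.79 ± 0.16 in IR20. The Dagad deshi value of CYCD5-2 was -0.27 without control replicate 1, was not called without 6 h replicate 3 (-0.44, adjusted p = 0.0522), and turned to 0.14 with the index as a term, while the IR20 value was then not called (-0.39, adjusted p = 0.062). The other probe set of CYCD5-2 fell more, with changes at 6 h of -2.25 ± 0.18 in Dagad deshi and -2.12 ± 0.18 in IR20.

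**Figure D2:**
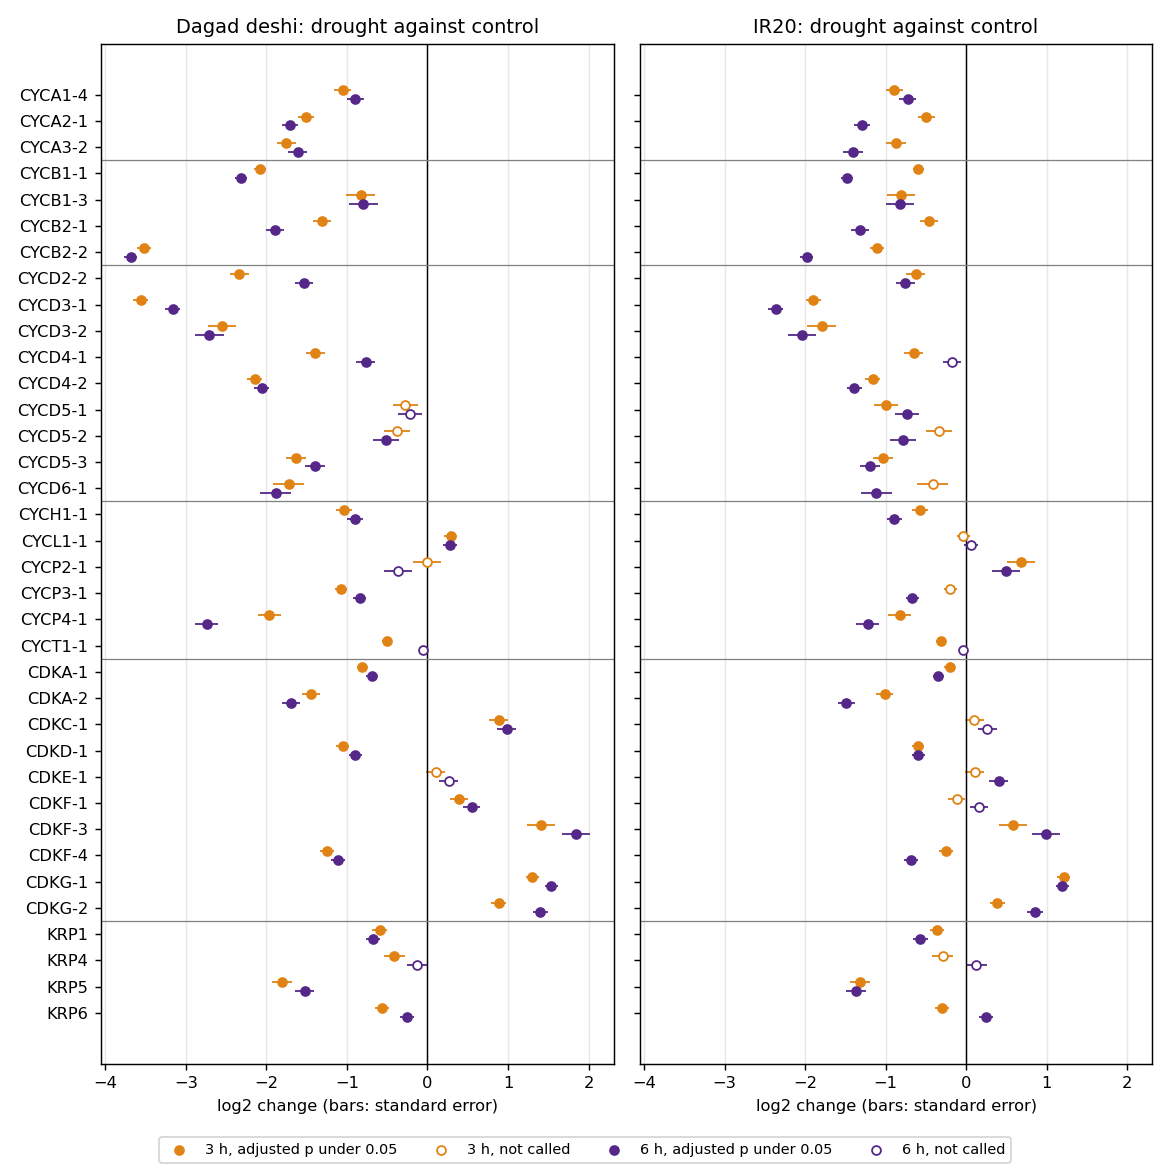
Log2 change of each tested member against its cultivar's controls at 3 h and 6 h, with standard errors as bars; filled points had an adjusted p under 0.05 in limma. Cyclins of the A, B and D types lie left of 0, and the points of Dagad deshi reach -3.69 where those of IR20 reach -2.37.

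Cyclins outside the A, B and D types did not share one direction. CYCP4-1, of the P class that resembles the yeast phosphate cyclin Pho80, had 9.89, 9.56 and 9.43 in Dagad deshi controls, 7.58, 7.70 and 7.69 at 3 h and 6.99, 7.09 and 6.56 at 6 h. IR20 had 9.55, 9.39 and 9.78 in controls, 8.71, 8.82 and 8.72 at 3 h and 8.48, 8.28 and 8.30 at 6 h. The controls of the cultivars lay in the same range, and under drought Dagad deshi lay below IR20 on every array. Changes were -1.97 ± 0.14 and -2.74 ± 0.14 in Dagad deshi and -0.82 ± 0.14 and -1.22 ± 0.14 in IR20 (highest adjusted p = 0.000293). Its relative CYCP3-1 was lower in Dagad deshi (-1.07 and -0.84) and in IR20 at 6 h (-0.67) but not called in IR20 at 3 h (-0.20 ± 0.08, adjusted p = 0.067). CYCP2-1 was called higher in IR20 at 3 h (0.68 ± 0.17, adjusted p = 0.00575) and at 6 h (0.50 ± 0.17, adjusted p = 0.0297). The call at 6 h was lost without IR20 control replicate 1 or 2 or without 6 h replicate 1 or 3, with an adjusted p of up to 0.103.

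CYCH1-1, the cyclin partner of the CDK-activating kinase, had 9.30, 9.05 and 8.89 in Dagad deshi controls, 7.98, 8.01 and 8.14 at 3 h and 8.34, 8.13 and 8.07 at 6 h. It had 9.14, 9.11 and 9.16 in IR20 controls, 8.58, 8.59 and 8.52 at 3 h and 8.13, 8.37 and 8.24 at 6 h. Neither cultivar had a drought array within the range of its controls. The changes were -1.03 ± 0.10 and -0.90 ± 0.10 in Dagad deshi and -0.58 ± 0.10 and -0.89 ± 0.10 in IR20 (highest adjusted p = 0.000236). The kinase of that pair, CDKD-1, was lower as well, with changes of -1.05 ± 0.08 and -0.90 ± 0.08 in Dagad deshi and -0.60 ± 0.08 and -0.60 ± 0.08 in IR20. CYCT1-1, a cyclin of the kinase complex that phosphorylates RNA polymerase II, was called lower at 3 h (-0.51 and -0.32) and not at 6 h (-0.06 ± 0.06 and -0.04 ± 0.06). CYCL1-1, of a class tied to RNA splicing, was called higher in Dagad deshi (0.29 ± 0.08 and 0.28 ± 0.08) and had -0.03 ± 0.08 and 0.06 ± 0.08 in IR20, and the Dagad deshi calls were lost when just the compared groups entered the model (adjusted p = 0.0569 and 0.0513).

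The A-type CDKs, the main kinases of the plant cell cycle, both fell. CDKA-2 had 8.96, 9.09 and 9.21 in Dagad deshi controls, 7.61, 7.62 and 7.69 at 3 h and 7.50, 7.46 and 7.21 at 6 h. For IR20 it had 8.98, 9.04 and 9.33 in controls, 8.15, 8.16 and 8.004 at 3 h and 7.75, 7.50 and 7.64 at 6 h. Levels did not overlap between controls and either drought time, nor between 3 h and 6 h in IR20. Its changes were -1.45 ± 0.11 and -1.70 ± 0.11 in Dagad deshi and -1.01 ± 0.11 and -1.49 ± 0.11 in IR20 (highest adjusted p = 2.55e-06). CDKA-1 changed less, with -0.81 ± 0.07 and -0.69 ± 0.07 in Dagad deshi and -0.20 ± 0.07 and -0.35 ± 0.07 in IR20. The probe sets of both genes carry suffixes that mark probes able to bind several transcripts, so the kinases may share signal. The CDKA-1 probe set without such a suffix lay near the floor in every group, between 4.42 and 4.48 on all arrays but the 1 control at 4.80, and could show no fall. An unsuffixed probe set of CDKA-2 fell as the chosen one did, with -2.13 ± 0.15 and -2.19 ± 0.15 in Dagad deshi and -1.11 ± 0.15 and -1.38 ± 0.15 in IR20. The CDKA-1 call in IR20 at 3 h did not survive leaving out IR20 control replicate 2 (-0.15, adjusted p = 0.138) or 3 h replicate 1 or 2.

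Most CDKs called higher were of the C, F and G classes. CDKF-3 had 7.93, 8.40 and 8.48 in Dagad deshi controls, 9.61, 9.69 and 9.73 at 3 h and 10.21, 9.75 and 10.40 at 6 h. In IR20 its levels were 9.01, 8.72 and 9.18 in controls, 9.53, 9.61 and 9.51 at 3 h and 9.73, 10.10 and 10.05 at 6 h. All drought arrays were above the controls of their cultivar, and the IR20 controls were above those of Dagad deshi. The rise was 1.41 ± 0.17 and 1.85 ± 0.17 in Dagad deshi, 2.66-fold and 3.6-fold, and 0.58 ± 0.17 and 0.99 ± 0.17 in IR20 (highest adjusted p = 0.0151). Once the index was a term these values were 0.61, 1.06, 0.21 and 0.52, and the IR20 change at 3 h was not called (adjusted p = 0.264). Without IR20 control replicate 2 it was lost too (0.46, adjusted p = 0.075).

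Both G-type CDKs, a class tied in Arabidopsis to RNA splicing, rose in both cultivars. CDKG-1 rose by 1.30 and 1.54 in Dagad deshi, against 1.21 and 1.19 in IR20, and CDKG-2 by 0.89 and 1.40 in Dagad deshi, against 0.38 and 0.85 in IR20 (highest adjusted p = 0.00427). CDKC-1, the kinase partner of T-type cyclins, rose in Dagad deshi by 0.89 ± 0.12 and 0.98 ± 0.12 and had 0.10 ± 0.12 and 0.26 ± 0.12 in IR20 (adjusted p = 0.681 and 0.0935). CDKF-1, whose relative in Arabidopsis activates other CDKs, was called higher in Dagad deshi (0.39 and 0.55) and had -0.12 ± 0.11 and 0.16 ± 0.11 in IR20. The Dagad deshi call for CDKF-1 at 3 h was lost when just the compared groups entered the model (adjusted p = 0.0867).

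Probe sets of CDKF-4 and CDKE-1 disagreed in direction or size in the comparisons with controls. The chosen probe set of CDKF-4 was lower in Dagad deshi (-1.25 ± 0.09 and -1.11 ± 0.09) and in IR20 (-0.26 ± 0.09 and -0.69 ± 0.09), whereas its other one lay above the controls, 2.33-fold (adjusted p = 0.197) and 4.91-fold (adjusted p = 0.0229) in Dagad deshi and 4.59-fold (adjusted p = 0.0496) and 3.79-fold (adjusted p = 0.0722) in IR20, with an SE of 0.82 on the log2 scale, so no direction can be given for the gene. The CDKF-4 call in IR20 at 3 h was lost without IR20 control replicate 3 or without 3 h replicate 1 or 3, with an adjusted p of up to 0.102. The chosen probe set of CDKE-1, the kinase of the Mediator complex, was called only in IR20 at 6 h (0.41 ± 0.12), a call that was lost with the index as a term (0.21, adjusted p = 0.235). Its other probe set, singled out after its values were seen, rose in all 4 comparisons, by 2.65 ± 0.12 and 3.95 ± 0.12 in Dagad deshi and by 1.29 ± 0.12 and 2.32 ± 0.12 in IR20.

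**Figure D3:**
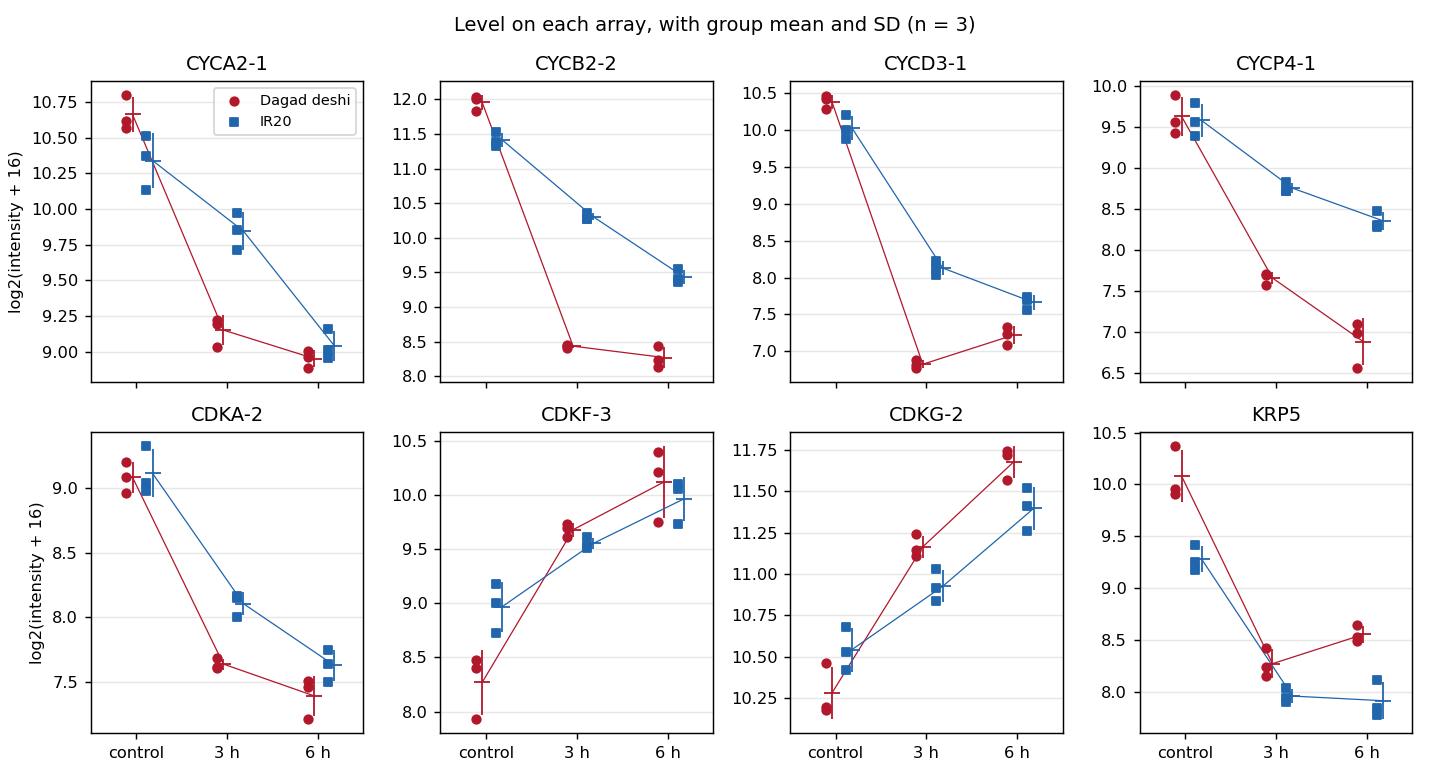
Levels of 8 members on each array, as log2(intensity + 16), for controls and for 3 h and 6 h of drought in Dagad deshi (red circles) and IR20 (blue squares); horizontal marks and bars are group means and SDs of 3 arrays. CYCP4-1 starts in the same range in both cultivars and lies lower in Dagad deshi under drought, while CDKF-3 and CDKG-2 rise in both.

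Of the KRP inhibitors, KRP5 and KRP1 fell in all 4 comparisons. KRP5 had 9.96, 10.37 and 9.91 in Dagad deshi controls, 8.43, 8.15 and 8.24 at 3 h and 8.49, 8.64 and 8.53 at 6 h. The IR20 arrays had 9.18, 9.41 and 9.25 in controls, 7.95, 8.03 and 7.90 at 3 h and 8.12, 7.78 and 7.84 at 6 h. The groups under drought lay below the controls of both cultivars, and IR20 controls lay below Dagad deshi controls. Changes were -1.81 ± 0.12 and -1.53 ± 0.12 in Dagad deshi and -1.32 ± 0.12 and -1.37 ± 0.12 in IR20 (highest adjusted p = 6.62e-07).

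KRP1 had 10.71, 10.67 and 10.77 in Dagad deshi controls, 10.22, 10.06 and 10.09 at 3 h and 10.11, 10.11 and 9.89 at 6 h. Its levels in IR20 were 10.50, 10.73 and 10.31 in controls, 10.13, 10.13 and 10.19 at 3 h and 10.01, 9.92 and 9.91 at 6 h. Controls and drought arrays did not overlap in either cultivar. The changes were -0.59 ± 0.09 and -0.68 ± 0.09 in Dagad deshi and -0.36 ± 0.09 and -0.57 ± 0.09 in IR20 (highest adjusted p = 0.00473). Once the index was a term, the 3 h changes of KRP1 were -0.35 and -0.25 and not called (adjusted p = 0.0986 and 0.0706).

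KRP4 and KRP6 had smaller changes, and some depended on single arrays. KRP4 was called lower in Dagad deshi at 3 h (-0.41 ± 0.13, adjusted p = 0.011), a call lost without 3 h replicate 3 (-0.34, adjusted p = 0.0516) and reversed in sign with the index as a term (0.093). KRP6 was called lower at 3 h in both cultivars (-0.57 ± 0.09 and -0.30 ± 0.09), calls lost with the index as a term (adjusted p = 0.0724 and 0.11). At 6 h KRP6 was called lower in Dagad deshi (-0.25 ± 0.09, adjusted p = 0.0184) and higher in IR20 (0.24 ± 0.09, adjusted p = 0.0338). The Dagad deshi call was lost without control replicate 1 (-0.22) or 6 h replicate 3 (-0.16), and the IR20 call without control replicate 1, 2 or 3 or without 6 h replicate 1 (0.15). The other probe set of KRP6 was called higher in Dagad deshi at 6 h (0.27 ± 0.09, adjusted p = 0.0128), opposite to the chosen one.

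Between 3 h and 6 h of drought, a comparison without controls, 9 members were called in Dagad deshi and 16 in IR20. The 3'/5' index overlapped between the times in Dagad deshi, while in IR20 all 6 h arrays but replicate 1 lay below every 3 h array. With the index as a term all 9 and all 16 calls remained, and without IR20 6 h replicate 1, which had the index of 3.19, 13 of the 16 remained. In Dagad deshi 6 members were higher and 3 lower at 6 h than at 3 h, against 5.33% and 6.16% of all probe sets, and in IR20 5 were higher and 11 lower (10.9% and 14.6%). In IR20 the lower ones included both CYCA2-1 and CYCA3-2 (-0.80 ± 0.10 and -0.53 ± 0.12), the B-type cyclins CYCB1-1, CYCB2-1 and CYCB2-2 (-0.88 ± 0.07, -0.86 ± 0.11 and -0.87 ± 0.08), CYCD3-1 (-0.47 ± 0.09), CYCP3-1 (-0.47 ± 0.08) and CDKA-2 (-0.48 ± 0.11) (highest adjusted p = 0.00366). The CDKA-2 value was -0.26 and not called on a probe set without a suffix for shared probes (adjusted p = 0.288). CYCD6-1 was lower too (-0.70 ± 0.19), a call lost without replicate 1 of either drought time (adjusted p = 0.0642 and 0.0549). The 2 other falls were CYCH1-1 (-0.31 ± 0.10), lost when any of 5 arrays was left out, and the chosen probe set of CDKF-4 (-0.43 ± 0.09).

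In Dagad deshi, CYCB2-1 and CYCP4-1 went on falling (-0.58 ± 0.11 and -0.78 ± 0.14, highest adjusted p = 0.0036), and the smaller fall of CYCB1-1 (-0.24 ± 0.07, adjusted p = 0.0425) was lost when any of 10 arrays was left out. Levels came back up in CYCD2-2 (0.80 ± 0.12), CYCD4-1 (0.62 ± 0.12), CYCT1-1 (0.45 ± 0.06) and CYCD3-1 (0.40 ± 0.09), the last not called without 3 h replicate 3 (adjusted p = 0.0501). CYCD4-1 and CYCT1-1 came back up in IR20 too (0.47 ± 0.12 and 0.28 ± 0.06), as did KRP6 (0.55 ± 0.09). The rise of KRP6 in Dagad deshi (0.32 ± 0.09) and that of KRP4 in IR20 (0.41 ± 0.13) were lost without any 1 of 4 and of 3 arrays. On the other KRP6 probe set the values were 0.11 ± 0.09 in Dagad deshi and 0.06 ± 0.09 in IR20, not called. CDKG-2 rose further in both cultivars (0.51 ± 0.09 and 0.47 ± 0.09), but not with the mean of its probe sets (0.069 and 0.15). A further CDKG-2 probe set had -0.42 ± 0.21 and -0.35 ± 0.21 in this step, not called, so its direction there differs between probe sets. CYCD3-1 was called in opposite directions between the times in the cultivars, and the difference between the cultivars in these steps was not tested.

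**Figure D4:**
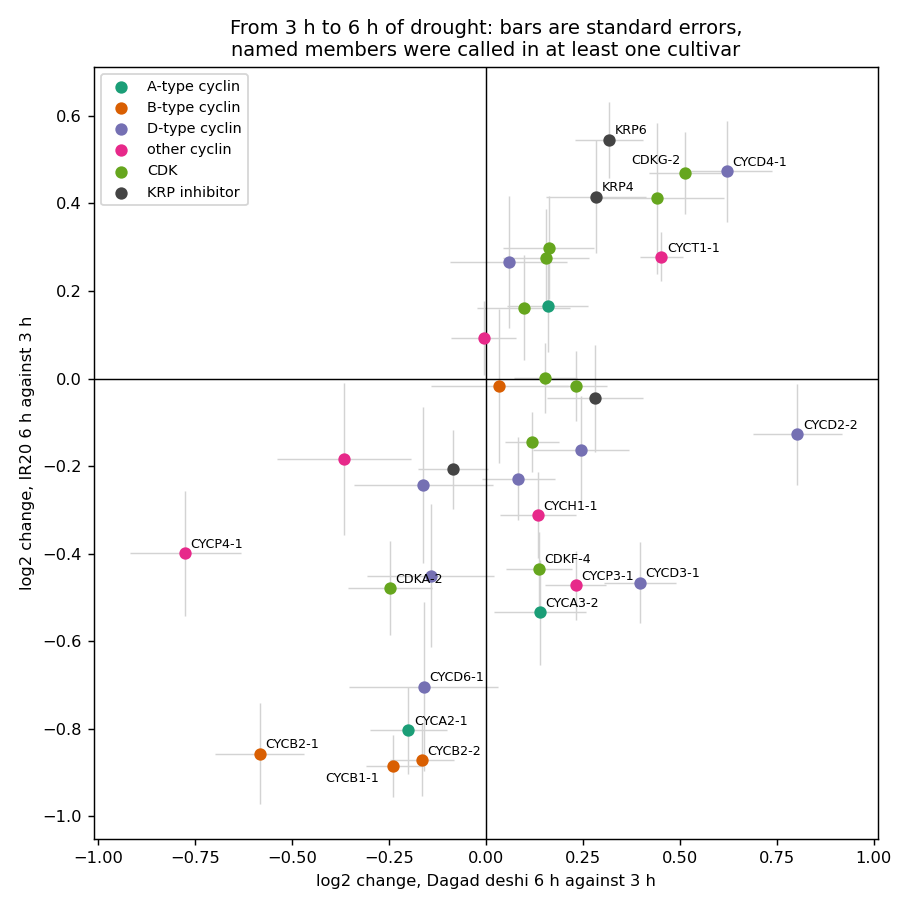
Log2 change from 3 h to 6 h of drought in Dagad deshi (x axis) and in IR20 (y axis) for each tested member, coloured by class, with standard errors as bars; members called in at least one cultivar are named. The B-type cyclins CYCB1-1, CYCB2-1 and CYCB2-2 and CYCA2-1 lie at the bottom, with IR20 changes of -0.80 to -0.88.

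Without drought the cultivars differed by less than 1 on the log2 scale in each member. In controls 6 members were higher and 12 lower in IR20 than in Dagad deshi (17.2% and 35.9% of all probe sets), with differences from -0.80 for KRP5 to 0.70 for CDKF-3. Only 3 of these 18 calls were made in a fit on the 2 control groups alone. At 3 h 18 were higher and 3 lower in IR20 (18.1% and 16% of all probe sets), 7 of the higher ones by at least 1 (5.65% of all probe sets). The index at 3 h did not overlap between the cultivars, and with it as a term 20 of the 21 calls remained. Those higher by at least 1 were CYCB2-2 (1.87 ± 0.08), CYCB1-1 (1.41 ± 0.07), CYCD3-1 (1.30 ± 0.09), CYCD2-2 (1.25 ± 0.12), CYCB2-1 (1.19 ± 0.11), CYCP4-1 (1.09 ± 0.14) and CYCD6-1 (1.02 ± 0.19), with a highest adjusted p of 0.000645. At 6 h 9 were higher and 5 lower (10.5% and 11.6% of all probe sets), and CYCP4-1 (1.47 ± 0.14) and CYCB2-2 (1.16 ± 0.08) still differed by at least 1 (2.78%). For CYCA2-1, CYCA3-2 and CYCD6-1 the cultivars did not differ by the test at 6 h, with differences of 0.09 ± 0.10, -0.03 ± 0.12 and 0.48 ± 0.19.

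The response to drought itself differed between cultivars for 27 members at 3 h and 20 at 6 h, 18 of them at both, against 48.2% and 43% of all probe sets tested. The number at 6 h was 12 when just the compared groups entered the model, and 10 of the 20 calls stood under every alternative. Of the 23 members called lower in both cultivars, 23 at 3 h and 21 at 6 h had the larger fall in Dagad deshi, as did 83.2% and 70.9% of all probe sets called lower in both. Positive differences of at least 1, given as the IR20 minus the Dagad deshi change, were called in 6.17% of all probe sets at 3 h and 3.1% at 6 h. At 3 h they were found for CYCB2-2 (2.41 ± 0.12), CYCD2-2 (1.71 ± 0.16), CYCD3-1 (1.66 ± 0.13), CYCB1-1 (1.48 ± 0.10), CYCD6-1 (1.31 ± 0.27), CYCP4-1 (1.14 ± 0.20) and CYCA2-1 (1.02 ± 0.14). At 6 h they were found for CYCB2-2 (1.71 ± 0.12) and CYCP4-1 (1.52 ± 0.20). On the other CYCB2-2 probe set the cultivars lay closer at 3 h, with changes of -2.02 in Dagad deshi and -0.81 in IR20. From 3 h to 6 h that probe set changed by -0.34 ± 0.20 in Dagad deshi and -0.75 ± 0.20 in IR20. The cultivars thus lay closer still on it at 6 h, with a difference under 1. The CDKs that rose did so more in Dagad deshi in CDKF-3 (-0.83 ± 0.25 and -0.86 ± 0.25), CDKC-1 (-0.79 ± 0.17 and -0.72 ± 0.17) and CDKG-2 (-0.50 ± 0.13 and -0.54 ± 0.13). The CDKF-3 difference at 3 h was -0.41 and not called with the index as a term (adjusted p = 0.12), and that at 6 h was not called when just the compared groups entered the model (adjusted p = 0.054). In level, CDKF-3 differed between the cultivars in the controls (0.70 ± 0.17, called). Under drought its levels did not differ by the test (-0.13 ± 0.17 at 3 h and -0.16 ± 0.17 at 6 h). Drought marker genes also differed in their response. For 7 of 8 the IR20 change was called below that of Dagad deshi at each time, against 16.7% and 14.6% of all probe sets. SALT, 1 of them, fell in IR20 at 3 h (-0.434). The state of the IR20 controls, in which 7 of 8 markers were higher (17.2% of all probe sets), was not separated from the response.

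Other cell cycle genes were counted for comparison, from a list of 23 with a probe set. In Dagad deshi 16 were lower and 4 higher at 3 h (47.3% and 23.6% of all probe sets), and 16 were lower and 3 higher at 6 h (45.7% and 24.7%). In IR20 17 were lower and 2 higher at 3 h (21.9% and 14.9%), and 16 were lower and 3 higher at 6 h (25.5% and 20.4%). The genes MCM2 to MCM7, subunits of the helicase that opens DNA for replication, all fell, with changes from -3.77 to -2.77 in Dagad deshi and from -3.12 to -2.62 in IR20 at 6 h. PCNA, the sliding clamp of DNA polymerase, had changes at 6 h of -3.16 ± 0.10 in Dagad deshi and -3.05 ± 0.10 in IR20. CDKB2-1, a plant kinase of mitosis, had -2.31 ± 0.09 and -1.37 ± 0.09, and RBR1, the target of D-type cyclins, had -1.81 ± 0.14 and -1.42 ± 0.14. RBR2, its paralog, had 0.14 ± 0.12 and 0.10 ± 0.12 at 6 h, not called, and was called higher in Dagad deshi at 3 h (0.39 ± 0.12, adjusted p = 0.0127). From 3 h to 6 h all of MCM2 to MCM7 fell again in IR20, by 1.22 to 1.54 on the log2 scale. In Dagad deshi they fell less in that step, with changes from -0.91 to -0.45, and 5 of 6 were called lower (6.16% of all probe sets).

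CDK inhibitors of another family went the opposite way to KRP1 and KRP5. SMR1 and EL2, inhibitors of the SIAMESE type, rose by 4.07 ± 0.08 and 3.57 ± 0.09 in Dagad deshi and by 3.71 ± 0.08 and 3.23 ± 0.09 in IR20 at 6 h, with nearly the same changes at 3 h (3.96 and 3.55, 3.86 and 3.20) and a highest adjusted p of 2.47e-12. ORC2, a subunit of the origin recognition complex, was higher at 6 h (1.26 ± 0.20 and 0.65 ± 0.20), while ORC1 and ORC3 were lower (-2.19 ± 0.14 and -1.63 ± 0.18 in Dagad deshi, -1.95 ± 0.14 and -1.62 ± 0.18 in IR20). RPA1A, of the single-strand DNA binding complex, and CKS1, a small protein that binds CDKs, were called in none of the 4 comparisons, with changes between -0.19 and 0.18 and between -0.36 and 0.32.

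**Figure D5:**
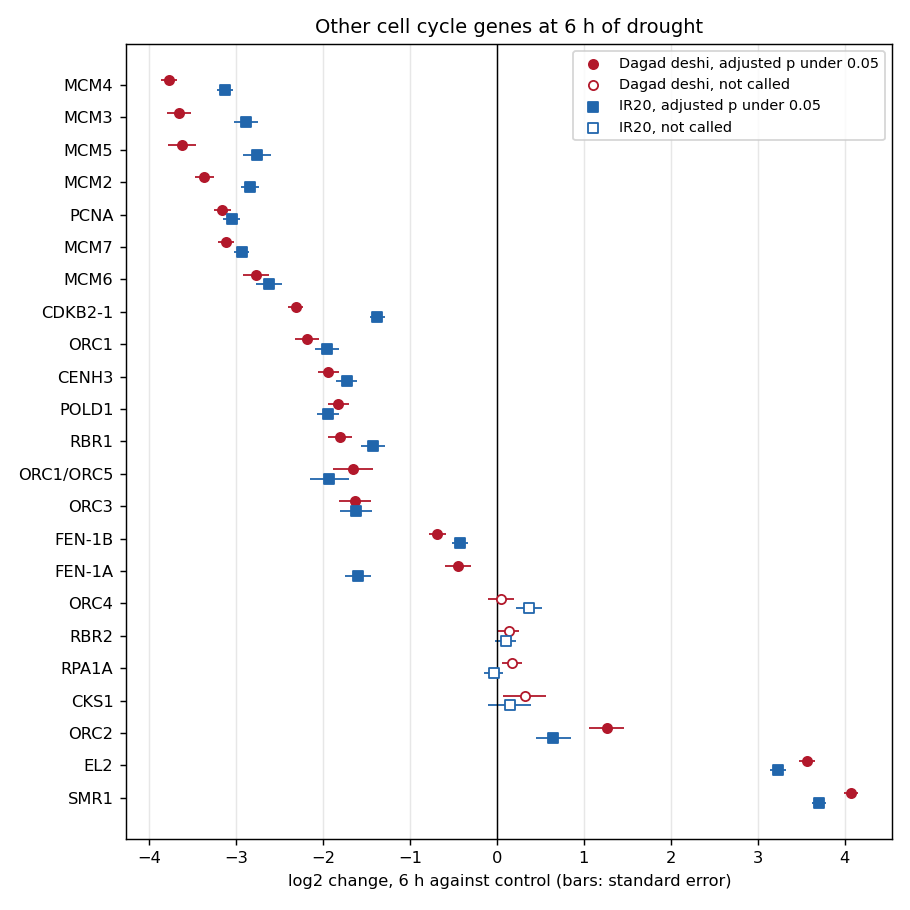
Log2 change at 6 h of drought against controls for 23 cell cycle genes outside the cyclin, CDK and KRP names, in Dagad deshi (red circles) and IR20 (blue squares), with standard errors as bars; filled points had an adjusted p under 0.05. MCM4 is at the left end with -3.77 and -3.12, and SMR1 and EL2 stand alone at the right with changes above 3.

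The index was entered as a term of the fit to see which calls against controls stood beside it. No control array had an index within the range of the drought arrays, so the term rests on the spread within groups. It cannot separate the index from drought, and calls that remained are not shown to be free of RNA quality. Calls in the same direction remained for 28 of 32 members in Dagad deshi at 3 h and 28 of 31 at 6 h, and for 24 of 28 and 26 of 30 in IR20. Without the 2 control arrays of the highest index, 32 of 32 and 30 of 31 calls remained in Dagad deshi and 27 of 28 and 28 of 30 in IR20. The controls left still had a higher index than every drought array, so this step did not separate the index from drought either.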

How the data were processed

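The samples were 18 one-colour Affymetrix rice arrays, 3 in each of 6 groups. RNA was labelled by a 3' method and scanned, and the authors deposited 1 intensity per probe set on a linear scale. The submitters' processing notes name GCOS without a version, and the summarization and normalization are not given in the sources used here. Arrays have no read depth, and their number limits the precision.

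From the deposited intensities, log2 of the value plus a pseudocount of 16 was taken for 57381 probe sets. Fits left out 104 control probe sets and kept 19, and probe sets with a mean above the 30th percentile, a log2 of 4.4183, were tested (40094). limma 3.58.1 in R 4.3.3 was fitted to 6 group means with a trended variance prior and no covariate, and Benjamini-Hochberg adjustment was made within each of 11 comparisons. Summaries used Python 3.11.15, pandas 2.3.3 and numpy 2.4.6.

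Probe sets were named through the platform's annotation and RefSeq ASM3414082v1, with 22436 annotated to 1 gene, 95 to several and 34850 to none. Values on every array are given for the 2 members of each class with the largest change at 6 h and for members whose drought response differed between the cultivars by at least 1 on the log2 scale. Further probe sets are named where their direction at 6 h differs. They are also named for CYCB2-2, CYCD5-2, CDKA-1, CDKA-2, CDKE-1 and CDKG-2, where it does not. The members and the comparison lists were chosen with earlier results of these data known. Alternatives were quantile normalization, median centring, a pseudocount of 1 or 64, a filter at the 60th percentile or none, a constant prior, the replicate number as a block, a model of just the compared groups, other probe set choices, the 3'/5' index as a term, leaving out the 2 controls of the highest index, each array in turn, and a fold threshold. Sequences and coordinates were not analysed here.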

Additional observations from a re-analysis of the deposited data

Results flagged for a closer look

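The members whose drought response differed between the cultivars, by the limma interaction of cultivar and drought, are listed with the IR20 change minus the Dagad deshi change on the log2 scale, for which a positive value means a higher drought level relative to controls in IR20. At 3 h these were 27 members, with adjusted p up to 0.0391. Among A- and B-type cyclins they were CYCA2-1 (1.02), CYCA3-2 (0.88), CYCB1-1 (1.48), CYCB2-1 (0.84) and CYCB2-2 (2.41). Among D-type cyclins they were CYCD2-2 (1.71), CYCD3-1 (1.66), CYCD3-2 (0.75), CYCD4-1 (0.74), CYCD4-2 (0.98), CYCD5-1 (-0.72), CYCD5-3 (0.60) and CYCD6-1 (1.31), of which CYCD5-1 fell more in IR20. The other cyclins were CYCH1-1 (0.46), CYCL1-1 (-0.32), CYCP2-1 (0.69), CYCP3-1 (0.88) and CYCP4-1 (1.14). The CDKs were CDKA-1 (0.60), CDKA-2 (0.44), CDKC-1 (-0.79), CDKD-1 (0.45), CDKF-1 (-0.51), CDKF-3 (-0.83), CDKF-4 (0.99) and CDKG-2 (-0.50), and of the KRP inhibitors KRP5 (0.49) was called. The call was lost when any 1 of several arrays was left out for CYCD3-2 (5 arrays, adjusted p up to 0.0631), CYCL1-1 (7 arrays, adjusted p up to 0.0957), CYCP2-1 (7 arrays, adjusted p up to 0.0858), CDKA-2 (7 arrays, adjusted p up to 0.0764), KRP5 (7 arrays, adjusted p up to 0.0778). With the index as a term it was lost for CYCD5-3 (0.44), CYCH1-1 (0.37), CYCP2-1 (0.65), CDKF-3 (-0.41) and KRP5 (0.42). Some members differed between the cultivars in control levels and not by the test in 3 h levels. Among them were CYCD4-2 (-0.76 in controls, 0.22 at 3 h), CDKF-1 (0.68 and 0.16) and CDKF-3 (0.70 and -0.13).

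At 6 h the response differed for 20 members, with adjusted p up to 0.0458. Among A- and B-type cyclins these were CYCA2-1 (0.41), CYCB1-1 (0.84), CYCB2-1 (0.57) and CYCB2-2 (1.71). D-type cyclins with a difference were CYCD2-2 (0.78), CYCD3-1 (0.80), CYCD3-2 (0.67), CYCD4-1 (0.59), CYCD4-2 (0.67) and CYCD6-1 (0.77), and other cyclins were CYCP2-1 (0.87) and CYCP4-1 (1.52). The CDKs were CDKA-1 (0.34), CDKC-1 (-0.72), CDKD-1 (0.30), CDKF-3 (-0.86), CDKF-4 (0.42), CDKG-1 (-0.34) and CDKG-2 (-0.54), and KRP6 (0.49) was the KRP inhibitor called. A loss on leaving out any 1 of several arrays was seen for CYCA2-1 (4 arrays, adjusted p up to 0.0781), CYCD3-2 (12 arrays, adjusted p up to 0.102), CYCD6-1 (8 arrays, adjusted p up to 0.0908), CDKD-1 (11 arrays, adjusted p up to 0.113), CDKG-1 (4 arrays, adjusted p up to 0.0678). With the index as a term the call was lost for CYCA2-1 (0.26), CDKA-1 (0.27) and CDKD-1 (0.26). Some members differed between the cultivars in control levels and not by the test in 6 h levels. Among them were CYCD4-2 (-0.76 in controls, -0.09 at 6 h), CYCD3-2 (-0.53 and 0.15), CDKD-1 (-0.31 and -0.01) and CDKF-3 (0.70 and -0.16). With 3 arrays in a group, outlying samples were not tested for.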

How the results depend on the processing

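Of 246 calls of members over the 11 comparisons, 163 stood under every alternative and 208 without any 1 array. The alternatives were the normalization, pseudocount, filter, variance prior, block, fit, probe set choice and index, where the member could be tested. Leaving out 1 array at a time, the number called was 31 to 35 in Dagad deshi at 3 h and 30 to 32 at 6 h, 26 to 30 and 28 to 31 in IR20, 6 to 11 and 13 to 19 for 6 h against 3 h, 13 to 18, 18 to 24 and 11 to 18 between the cultivars in controls, at 3 h and at 6 h, and 23 to 28 and 15 to 25 for the cultivar difference of the response at 3 h and 6 h. With a change of at least 1 also required, by construction fewer members were called, 18 at 6 h for Dagad deshi, 8 at 3 h and 14 at 6 h for IR20, 0 for 6 h against 3 h in either cultivar, 0, 7 and 2 between the cultivars in controls, at 3 h and at 6 h, and 7 and 2 for the cultivar difference of the response. At an unadjusted p under 0.05 limma called 15, 23 and 20 of the 36 members for 6 h against 3 h in Dagad deshi, in IR20 and between the controls. With just the compared groups in the model, 3 members were called between the controls and 12 for the cultivar difference at 6 h. Directions turned with the mean of all probe sets of a gene for CDKF-4 (0.59 at 6 h for Dagad deshi, 0.97 at 3 h and 0.62 at 6 h for IR20), KRP6 in Dagad deshi at 6 h (0.0094) and the cultivar difference of CDKE-1 (-0.68 and -0.75), since other probe sets then enter. They turned without suffixed probe sets for CDKA-1 in IR20 at 3 h (0.0080, on a probe set near the floor that can show no direction) and CDKA-2 between controls (-0.61), with the index as a term for KRP4 in Dagad deshi at 3 h (0.093) and CYCD5-2 in Dagad deshi at 6 h (0.14), and for the cultivar difference of CYCB1-3 at 3 h without the 2 controls of the highest index (-0.33) or without Dagad deshi control replicate 1 (-0.28), a difference that ran from -0.28 to 0.27 when 1 array at a time was left out. The cause was not tested.

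The replicate numbers showed no clear pairing of the arrays. Whether arrays of the same number were handled together is not known from these values. Deviations of arrays with the same number correlated from -0.551 to 0.355 with a median of 0.029, over 0.1 in 12 of 45 pairs, against a median of -0.001 for other pairs. With the replicate block, 33 and 31 members were called in Dagad deshi at 3 h and 6 h, 28 and 30 in IR20, 8 and 17 for 6 h against 3 h, 18, 21 and 13 between the cultivars, and 27 and 19 for the cultivar difference of the response. Levels near 4 have little room to fall, and 3 arrays per group set the precision. The value table holds no detection calls, so no member was judged present or absent.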
